A study of Mus musculus with 9 samples.

Results

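The IFIT genes and a set of other classic interferon-stimulated genes were followed in SRSF1 knockout (SRSF1KO) and wild-type (WT) mouse thymocytes. SRSF1 is a serine/arginine-rich protein that binds RNA and takes part in pre-mRNA splicing. The set held 10 genes, Ifit1, Ifit2, Ifit3, Isg15, Usp18, Rsad2, Rtp4, Bst2, Ifi27 and Ifi27l2a, chosen by name as the rows of the count table whose Ensembl ID maps to one of these symbols. Each symbol matched 1 of the 53715 IDs in the table, and all 10 were among the 17351 genes that passed the filter on low counts and were tested. Bulk RNA-seq of full-length amplified cDNA (Smart-seq2) was available for 2 SRSF1KO samples, with the genotype Srsf1fl/flLckcre/+, and for 3 WT samples. In SRSF1KO mice the floxed gene is removed by Cre under the Lck promoter, which is active in cells of the T lineage; which Lck promoter was used, and whether WT mice carried the floxed alleles or Cre, is not given in the sources used here. Both groups were C57BL/6 mice aged 6 to 8 weeks, and the cells were thymocytes gated by flow cytometry as positive for CD4 and CD8 together with TCRβ, CD69 and CD24. The labels do not say that replicates were separate animals, so the tests compare the groups against the spread of these 5 libraries, part of which may be technical. The 4 CLIP-seq samples of the series were not analysed here.

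Type I interferons bind the receptor formed by IFNAR1 and IFNAR2, and the kinases JAK1 and TYK2 then phosphorylate STAT proteins. With IRF9 these form ISGF3, a transcription factor complex that binds the interferon-stimulated response element (ISRE) in promoters. The genes followed here are among the best known responders: IFIT proteins bind viral RNA, ISG15 is a ubiquitin-like modifier, USP18 removes ISG15 from proteins and restrains the receptor, RSAD2 (viperin) is an antiviral radical SAM enzyme, and BST2 (tetherin) holds budding virus at the cell surface. In the thymus, tonic interferon signalling is known to accompany the last maturation steps of single-positive thymocytes.

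The promoters of the set are shown because many interferon-stimulated genes are known to carry an ISRE near their start, and the rule that chose the set did not use sequence. RefSeq promoter windows of GRCm38.p6, 250 bases before to 50 bases after a transcription start, were matched for 6 of the 10 genes: Ifit1, Ifit2 (a pair of starts), Ifit3, Isg15, Rsad2 and Bst2. The starts matched for Ifit2 and Ifit3 lie inside the gene spans given further below. The bases before the first base of the span were therefore searched only in part for Ifit2 and not at all for Ifit3. Distances are from the matched start. The letters GAAANNGAAA, or TTTCNNTTTC on the opposite strand, were found in 5 of these 6 genes, against 3.44% of all 32851 windows and 3.99% of 27025 genes in the same collection. The 170 bases before the start of these 5 genes follow, 5′ to 3′ on the strand of the gene, with the matched letters in capitals: Ifit1 (chr19:34640719-34640888, plus strand), Ifit3 (chr19:34583359-34583528, plus strand), Isg15 (chr4:156200819-156200988, minus strand), Bst2 (chr8:71537473-71537642, minus strand) and Rsad2 (chr12:26456453-26456622, minus strand).
Ifit1: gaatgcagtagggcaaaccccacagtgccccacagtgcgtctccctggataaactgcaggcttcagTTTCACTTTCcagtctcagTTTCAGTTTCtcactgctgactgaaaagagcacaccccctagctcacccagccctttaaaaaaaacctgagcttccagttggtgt
Ifit3: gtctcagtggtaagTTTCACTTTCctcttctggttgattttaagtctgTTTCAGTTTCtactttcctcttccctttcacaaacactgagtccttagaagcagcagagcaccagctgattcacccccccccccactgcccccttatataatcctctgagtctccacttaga
Isg15: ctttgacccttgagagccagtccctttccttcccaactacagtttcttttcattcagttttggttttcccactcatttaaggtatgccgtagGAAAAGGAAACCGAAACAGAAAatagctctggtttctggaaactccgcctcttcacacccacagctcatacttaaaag
Bst2: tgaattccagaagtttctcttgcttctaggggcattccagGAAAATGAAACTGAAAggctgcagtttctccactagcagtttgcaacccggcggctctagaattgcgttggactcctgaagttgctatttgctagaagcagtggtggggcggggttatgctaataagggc
Rsad2: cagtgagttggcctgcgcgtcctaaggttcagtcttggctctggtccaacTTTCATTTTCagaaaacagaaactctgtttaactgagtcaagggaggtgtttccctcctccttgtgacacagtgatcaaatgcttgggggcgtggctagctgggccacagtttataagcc
Ifit1 and Ifit3 each had 2 separate matches, and the letters of each pair were the same, TTTCACTTTC followed by TTTCAGTTTC. They began 104 and 85 bases before the start in Ifit1 and 156 and 122 bases before it in Ifit3. Isg15 had 3 matches that overlap each other in 1 run, Bst2 had 2 that overlap, and Rsad2 had 1. Neither Ifit2 window held the motif. The gamma-activated sequence TTCNNNGAA, which reads the same on both strands, was present in Ifit2 and Bst2 only, 2 of 6 genes against 9.55% of all genes, and in Bst2 it overlaps an ISRE match. A match describes letters and does not show that a factor binds there.

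**Figure D1:**
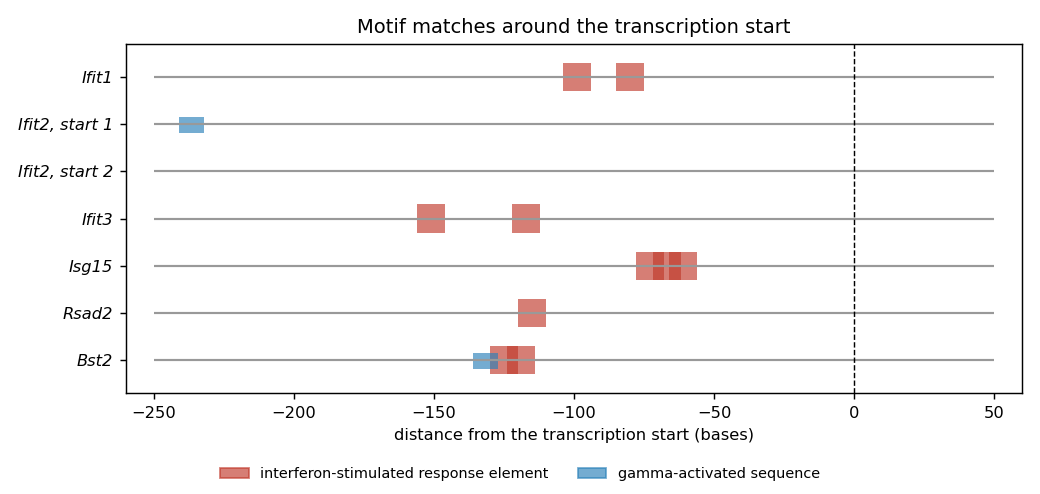
Position of motif matches (boxes) along 7 promoter windows of 6 genes, in bases from the transcription start (dashed line); lines span the 300 bases searched. The ISRE matches of Ifit1, Ifit3, Isg15, Rsad2 and Bst2 all lie between 156 and 57 bases before the start, and neither Ifit2 window has one.

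Library totals lay between 36026006 and 36062595 counts for SRSF1KO and between 36487359 and 38985285 for WT. Srsf1 itself, at 42.6 and 30.9 CPM (counts scaled to equal library size with TMM factors) in SRSF1KO replicates 1 and 2, against 96.9 to 122.7 CPM in WT, was reduced in both libraries labelled SRSF1KO (log2 fold change −1.55 ± 0.19 SE, adjusted p = 0.0483, edgeR). That call was narrow: with any 1 library left out the adjusted p was between 0.0509 and 0.220. The 11 genes of the sort gate summed to 13638 and 11934 CPM in SRSF1KO and 12170 to 13388 CPM in WT. That sum hides opposite differences. Cd4, 1 of the 11, was above all WT libraries (1229 and 1118 CPM, against 767 to 932 CPM in WT), beside 15.2% of all genes. Trac, Cd3d and Cd3g, 3 of the 11, were below all WT libraries in both SRSF1KO libraries, beside 17.8%. EdgeR called 0 of the 11, and DESeq2 called 1 higher, beside 2.31%. Sex-linked transcripts split both groups: SRSF1KO replicate 1 and WT replicate 2 had a male pattern and the other 3 libraries a female one. Over all genes, 37 were called lower (0.213% of those tested) and 9 higher (0.0519%) at an adjusted p under 0.05, against 7 and 3 when scaled by DESeq2's size factors.

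On several lists of cell type markers both SRSF1KO libraries lay outside the WT range, and SRSF1KO replicate 1 lay the farther from it. Its 6 markers of double-positive cells before selection (such as Rag1 and Dntt) summed to 4409 CPM and those of SRSF1KO replicate 2 to 2958 CPM, against 1975 to 2382 CPM in WT. Of these 6, edgeR called 0 and DESeq2 called 3 higher, beside 2.31% of all genes. At an unadjusted p under 0.05 with edgeR, all 6 were higher, beside 5.9%. For 5 of the 6 both SRSF1KO libraries were above all WT libraries, beside 15.2% of all genes tested. The 7 markers of mature single-positive cells (such as Ccr7 and S1pr1) summed to 969 and 1375 CPM in SRSF1KO replicates 1 and 2, against 1949 to 2085 CPM in WT. With edgeR, 2 of the 7, Itgb7 and Ms4a4b, were called lower, beside 0.213% of all genes. DESeq2 called 4 of the 7 lower, beside 3.56%. For 4 of the 7 both SRSF1KO libraries were below all WT libraries, beside 17.8% of all genes tested, and for 0 they were above. The 4 erythroid markers that passed the filter on low counts summed to 89.7 and 19.7 CPM in SRSF1KO replicates 1 and 2, against 2.34 to 11.8 CPM in WT. EdgeR called 0 of these 4, with 3 higher at an unadjusted p under 0.05 (5.9% of all genes), and DESeq2 called 1 higher (2.31%). Both SRSF1KO libraries were above all WT libraries for 3 of the 4, beside 15.2% of all genes tested. Markers of B cells summed to 762 and 559 CPM in SRSF1KO, against 492 to 567 CPM in WT, those of NK and γδ T cells to 95.8 and 82.8 CPM against 45.4 to 75.8 CPM in WT, and those of thymic epithelium to 25.8 and 13.8 CPM against 14.3 to 14.5 CPM in WT. Whether these markers have a part in the levels of interferon-stimulated genes was not tested. In bulk samples, fewer cells of a type and less RNA per cell cannot be told apart.

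The comparison of SRSF1KO with WT asked how these transcripts differ between the genotypes. The log2 fold change was below 0 for all 10 genes, and its median was −0.62 beside −0.0063 over all genes tested, of which 50.6% were below 0. Only Ifi27 and Ifi27l2a passed over all genes with edgeR, 2 of 10 against 0.213% of all genes. Limma-voom also called 2 of the 10 lower, against 0.409% of all genes. None of the 10 was called higher by edgeR (0.0519%), DESeq2 (2.31%) or limma-voom (0.133%), and 0 were higher at an unadjusted p under 0.05 (5.9%). Both SRSF1KO libraries lay below all 3 WT libraries for 7 of the 10 genes, against 17.8% of all genes tested, and above them for 0 of the 10, against 15.2%. A log2 fold change under −1 was seen for Ifit3 and Ifi27l2a, 2 of the 10, against 9.46% of genes. At an unadjusted p under 0.05, 5 of the 10 were lower, against 8.45% of genes. With DESeq2, 4 of the 10 were called lower, Ifi27, Ifi27l2a, Bst2 and Ifit1, where 3.56% of genes were called lower. The members were picked as known responders with earlier results of these data in view, so these shares describe the set and were not tested as a group.

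**Figure D2:**
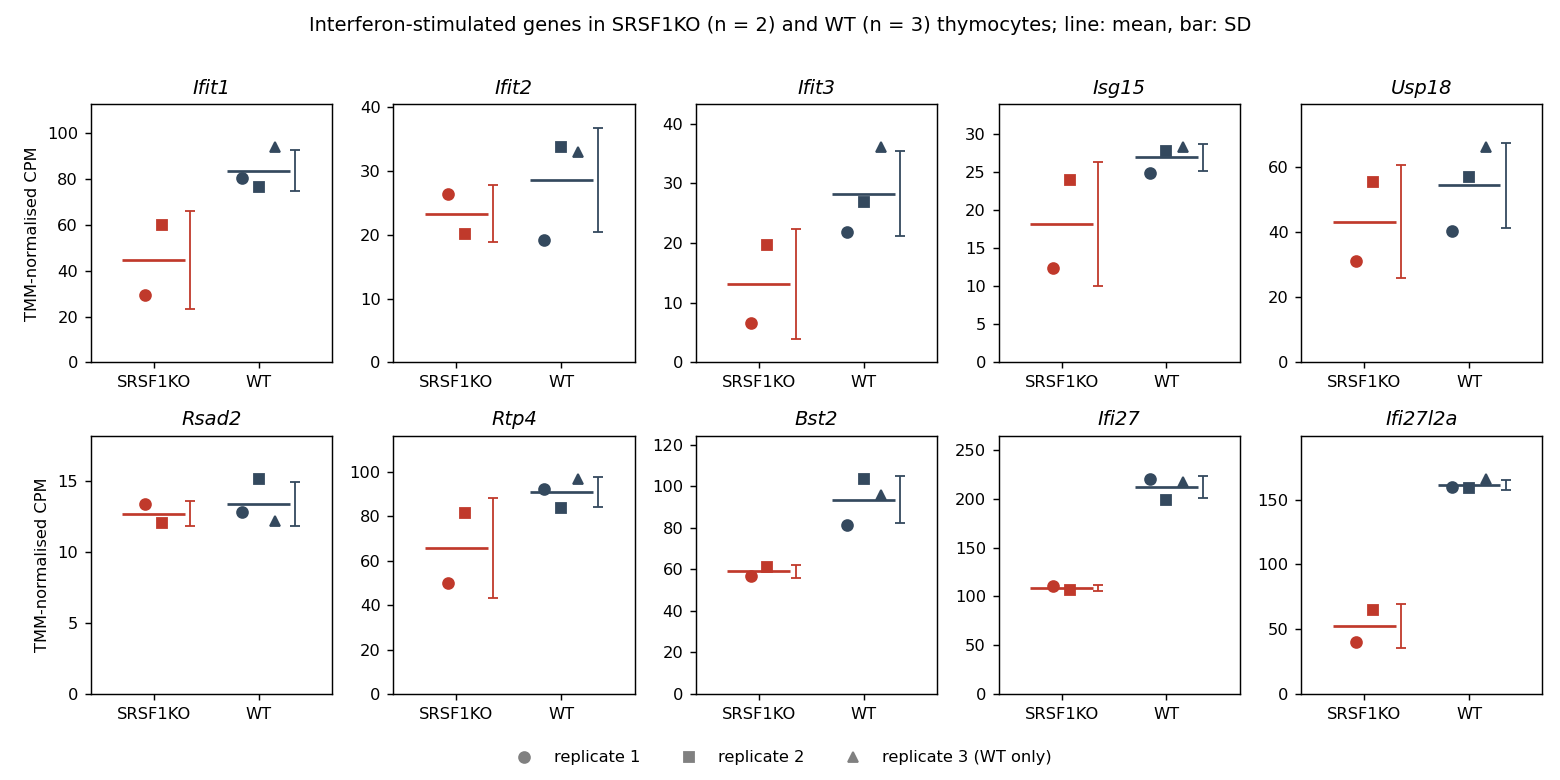
TMM-normalised CPM of the 10 genes in each library, SRSF1KO (red, n = 2) left of WT (dark, n = 3), with marker shape for the replicate, a line for the group mean and a bar for the SD. The groups are widely separated for Ifi27 and Ifi27l2a, and for Ifit1, Ifit3, Isg15 and Rtp4 SRSF1KO replicate 1 lies well below SRSF1KO replicate 2.

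Ifi27 and Ifi27l2a encode small hydrophobic proteins induced by interferon and share a locus on chromosome 12. Ifi27 (ENSMUSG00000064215.13, 103434189 to 103440245 in GRCm38) had 110.3 and 106.5 CPM in SRSF1KO, against 220.4, 198.9 and 217.1 CPM in WT replicates 1, 2 and 3. The SRSF1KO libraries were close to each other and at about the same distance below every WT library. It fell to 108.4 ± 2.74 CPM in SRSF1KO (SD, n = 2), against 212.1 ± 11.6 CPM in WT (SD, n = 3), and the log2 difference was −0.97 ± 0.10 (SE, edgeR adjusted p = 0.0401).

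Ifi27l2a (ENSMUSG00000079017.3, 103433873 to 103443680) had 40.3 and 64.6 CPM in SRSF1KO, against 160.0, 158.8 and 166.0 CPM in WT. Its WT libraries differed by no more than 0.063 on the log2 scale, the narrowest WT range of the 10 genes, while the SRSF1KO libraries differed by 0.67. The gene fell by 1.62 ± 0.20 on the log2 scale (SE, edgeR adjusted p = 0.0483), so its fitted level was 3.08-fold higher in WT. This was the largest change of the 10 genes. In RefSeq the whole of Ifi27 lies inside the span of Ifi27l2a, and no source used here states the strand setting of the counting. Reads of either gene could therefore be lost or assigned to the other. The call of Ifi27 was lost when any of the 5 libraries was left out, with adjusted p between 0.0509 (without SRSF1KO replicate 2) and 0.220 (without WT replicate 3). That of Ifi27l2a was lost without WT replicate 1, 2 or 3 (adjusted p = 0.211, 0.172 and 0.220). The fold changes themselves stayed between −1.01 and −0.92 for Ifi27 and between −1.98 and −1.32 for Ifi27l2a over those fits. The close paralogue Ifi27l2b had 1 count or none in every library.

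The IFIT genes lie in 1 cluster on chromosome 19, at 34550550 to 34576534 (Ifit2), 34583119 to 34588982 (Ifit3) and 34640889 to 34650009 (Ifit1). Ifit1 (ENSMUSG00000034459.8), whose protein binds capped viral RNA that lacks 2′-O-methylation, had 29.4 and 59.8 CPM in SRSF1KO, against 80.4, 76.6 and 93.8 CPM in WT. Both SRSF1KO libraries were below all WT libraries, and replicate 1 had 1061 raw counts where replicate 2 had 2136. The group means were 44.6 ± 21.4 CPM in SRSF1KO and 83.6 ± 9.02 CPM in WT (SD, n = 2 and n = 3). Its fitted log2 change of −0.91 ± 0.28 (SE) did not pass (edgeR adjusted p = 0.224). It was −1.49 with an adjusted p of 0.0389 without SRSF1KO replicate 2, and −0.48 without SRSF1KO replicate 1.

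Ifit3 (ENSMUSG00000074896.3), a partner that stabilises IFIT1 in human cells, had 6.58 and 19.7 CPM in SRSF1KO, against 21.9, 26.9 and 36.0 CPM in WT. The groups did not overlap, but SRSF1KO replicate 2 was close to the lowest WT library. Over all libraries its log2 fold change was −1.11 ± 0.46 (SE, edgeR adjusted p = 0.336), −2.09 without SRSF1KO replicate 2 and −0.52 without SRSF1KO replicate 1. Its near-identical neighbour Ifit3b had 2.00 and 4.48 CPM in SRSF1KO, against 2.03, 5.00 and 7.30 CPM in WT (log2 fold change −0.56 ± 0.64, adjusted p = 0.782). Reads shared by Ifit3 and Ifit3b could be split or dropped by the counting, so both values are less certain.

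Ifit2 (ENSMUSG00000045932.12), an RNA-binding member of the family, had 26.4 and 20.1 CPM in SRSF1KO, against 19.1, 33.7 and 32.9 CPM in WT. The groups overlapped, since WT replicate 1 had the lowest value of all 5 libraries. Its log2 fold change was −0.29 ± 0.29 (SE, edgeR adjusted p = 0.733). SRSF1KO replicate 1 was the higher SRSF1KO library for Ifit2, whereas that replicate was the lower one for Ifit1 and Ifit3. The Ifit1 relative Ifit1bl1, which overlaps Ifit1 in RefSeq, had 7.71 and 19.1 CPM in SRSF1KO, against 17.6, 18.5 and 13.5 CPM in WT (log2 fold change −0.30 ± 0.39, adjusted p = 0.816). Of 8 paralogues listed for the whole set, 3 were tested, and edgeR, DESeq2 and limma-voom called 0 of them, with 0 at an unadjusted p under 0.05.

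Isg15 and Usp18 belong to the ISGylation system, in which ISG15 is joined to proteins by UBA7, UBE2L6 and an E3 ligase and removed by USP18. Isg15 (ENSMUSG00000035692.6, chromosome 4, 156199424 to 156200818) had 12.4 and 23.9 CPM in SRSF1KO, against 24.9, 27.7 and 28.2 CPM in WT. SRSF1KO replicate 2 was only just below the lowest WT library, and replicate 1 had 447 raw counts where the other 4 libraries had between 855 and 1086. The log2 fold change was −0.57 ± 0.30 (SE, edgeR adjusted p = 0.441), and −0.17 without SRSF1KO replicate 1 against −1.10 without SRSF1KO replicate 2.

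Usp18 (ENSMUSG00000030107.10, chromosome 6, 121245906 to 121270917) had 31.1 and 55.4 CPM in SRSF1KO, against 40.3, 57.0 and 66.0 CPM in WT. The groups overlapped: SRSF1KO replicate 2 was above WT replicate 1. Its log2 fold change of −0.33 ± 0.29 (SE, edgeR adjusted p = 0.693) turned to 0.028 without SRSF1KO replicate 1. Of the 4 conjugation enzymes tested (Uba7, Ube2l6, Herc6 and Trim25), edgeR, DESeq2 and limma-voom called 0 in either direction, with 1 lower at an unadjusted p under 0.05, beside 8.45% of all genes. The log2 fold change was below 0 for all 4, and its median was −0.36. Trim25, an ISG15 ligase that also activates RIG-I, had 161.1 and 162.9 CPM in SRSF1KO, against 216.5, 255.0 and 189.7 CPM in WT (log2 fold change −0.44 ± 0.14, adjusted p = 0.218). Uba7, the activating enzyme, had a log2 fold change of −0.28 ± 0.15 (adjusted p = 0.459).

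Bst2, Rtp4 and Rsad2 act on viruses at membranes or on receptor traffic. Bst2 (ENSMUSG00000046718.8, chromosome 8, 71534255 to 71537472), which encodes tetherin, had 56.7 and 61.3 CPM in SRSF1KO, against 81.2, 103.5 and 95.8 CPM in WT. Like Ifi27, it had SRSF1KO libraries close to each other and clear of the WT range. Its group means were 59.0 ± 3.27 CPM in SRSF1KO and 93.5 ± 11.4 CPM in WT (SD, n = 2 and n = 3). The fitted log2 change, −0.66 ± 0.14 (SE), did not pass with edgeR (adjusted p = 0.127). It passed with DESeq2 (adjusted p = 0.00472), in edgeR without the filter on low counts (0.0246) and in edgeR on genes averaging 5 CPM or more (0.0427).

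Bst2 is also a marker of plasmacytoid dendritic cells, the main source of interferon in many tissues. The 6 markers fixed for that cell type summed to 1915 and 1856 CPM in SRSF1KO and to 1502 to 1622 CPM in WT, and all 6 were detected in every library. Most of that sum was Ccr9, which thymocytes also express. EdgeR called 0 of the 6, and DESeq2 called 1 higher, beside 2.31% of all genes. At an unadjusted p under 0.05, 2 of the 6 were higher, Siglech and Ccr9, beside 5.9%. Siglech had 5.47 and 9.68 CPM in SRSF1KO, against 3.86, 3.68 and 4.02 CPM in WT. Siglech, Cox6a2 and Ccr9, 3 of the 6, were above all WT libraries in both SRSF1KO libraries, beside 15.2% of all genes tested. Spib, Klk1 and Pacsin1 overlapped between the groups, with log2 fold changes of 0.41 ± 0.51, −0.58 ± 0.72 and −0.22 ± 0.17 (SE). The 13 macrophage and dendritic cell markers summed to 422 and 293 CPM in SRSF1KO and to 349 to 547 CPM in WT, with Itgax, Xcr1 and Clec9a at 0 in at least 1 library. Xcr1 had 0 and 1 counts in SRSF1KO, against 50, 57 and 29 in WT, and Clec9a 30 and 34 against 1, 11 and 0. EdgeR called 0 of the 13, and DESeq2 called 1 lower, beside 3.56% of all genes. In both SRSF1KO libraries 1 of the 13 was below all WT libraries, beside 17.8%, and 4 were above, beside 15.2%. The part of any of these markers in the level of Bst2 was not tested.

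Rtp4 (ENSMUSG00000033355.6, chromosome 16, 23520219 to 23614222), a chaperone of G protein-coupled receptors, had 49.9 and 81.7 CPM in SRSF1KO, against 92.4, 83.8 and 96.9 CPM in WT. SRSF1KO replicate 2 was next to WT replicate 2 and replicate 1 was far below. Its log2 fold change was −0.47 ± 0.21 (SE, edgeR adjusted p = 0.367), and −0.15 without SRSF1KO replicate 1 against −0.85 without SRSF1KO replicate 2. The RefSeq span of Rtp4 overlaps Masp1, as that of Isg15 does Gm46878 and that of Usp18 does Gm44148.

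Rsad2 (ENSMUSG00000020641.16, chromosome 12, 26442743 to 26456452) was the gene with the smallest difference. It had 13.3 and 12.1 CPM in SRSF1KO, against 12.8, 15.1 and 12.2 CPM in WT, so the groups were interleaved. The log2 fold change of −0.075 ± 0.25 (SE, edgeR adjusted p = 0.942) turned to 0.022 without WT replicate 2 and to 0.015 without SRSF1KO replicate 2. The SE is larger than the difference, and the data do not show that the level was the same in both groups. Rsad2 holds an ISRE match 120 to 111 bases before its start, as the sequences above show.

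**Figure D3:**
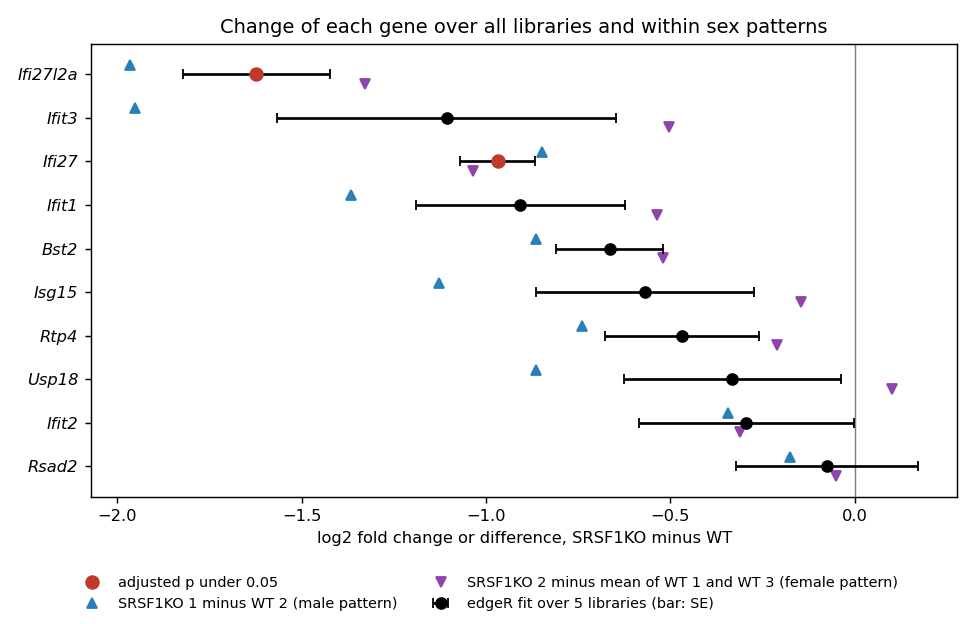
Log2 change of each gene, SRSF1KO minus WT, from edgeR over 5 libraries (circles with SE, red where the adjusted p is under 0.05) and within libraries of the same sex pattern (triangles, log2(CPM + 0.5), no error since each has 1 SRSF1KO library). Changes run between −1.62 for Ifi27l2a and −0.075 for Rsad2, and the male-pattern difference is the more negative one for all genes but Ifi27.

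The SRSF1KO libraries often differed from each other for these genes. For 7 of the 10 genes SRSF1KO replicate 1 was below SRSF1KO replicate 2, where 50.8% of the 9932 genes tested with a mean of at least 5 CPM showed that order. For 6 of the 10 the log2 difference between the SRSF1KO libraries exceeded the whole WT range, against 37.6% of those genes. Relative to the WT mean on the log2(CPM + 0.5) scale, the median of the 10 genes was −0.90 in SRSF1KO replicate 1 and −0.46 in SRSF1KO replicate 2, while the median over the 9932 genes was −0.011 and −0.012. Each SRSF1KO library alone was below all WT libraries for 8 of the 10 genes, where that held for 35.1% of genes in replicate 1 and 33% in replicate 2.

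The genes differed in how far each SRSF1KO library lay below WT, and no grouping of them was tested. Ifi27, Bst2 and Ifi27l2a were at −0.60 or below in both SRSF1KO libraries on this scale. Ifit1, Ifit3, Isg15 and Rtp4 were at −0.86 or below in replicate 1 and at −0.48, −0.48, −0.17 and −0.15 in replicate 2. Usp18 was at −0.77 in replicate 1 and 0.055 in replicate 2, Ifit2 at −0.065 and −0.45, and Rsad2 at 0.0018 and −0.14. Within the sex patterns, the median difference of the 10 genes was −0.86 between SRSF1KO replicate 1 and WT replicate 2 (male) and −0.41 between SRSF1KO replicate 2 and the mean of WT replicates 1 and 3 (female), beside −0.038 and −0.0029 over all genes tested. The difference was negative in both patterns for 9 of the 10 genes, the exception being Usp18 at 0.10 in the female pattern. The SRSF1KO library of each pattern is a single library, so sex and library cannot be told apart here. With sex as a term in edgeR, 0 of the 10 genes were called, beside 5 of the 17351 genes tested called lower and 0 higher. At an unadjusted p under 0.05 in that fit, 6 of the 10 were lower, beside 1352 of the 17351. Its adjusted p was 0.0798 for both Ifi27 and Ifi27l2a.

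**Figure D4:**
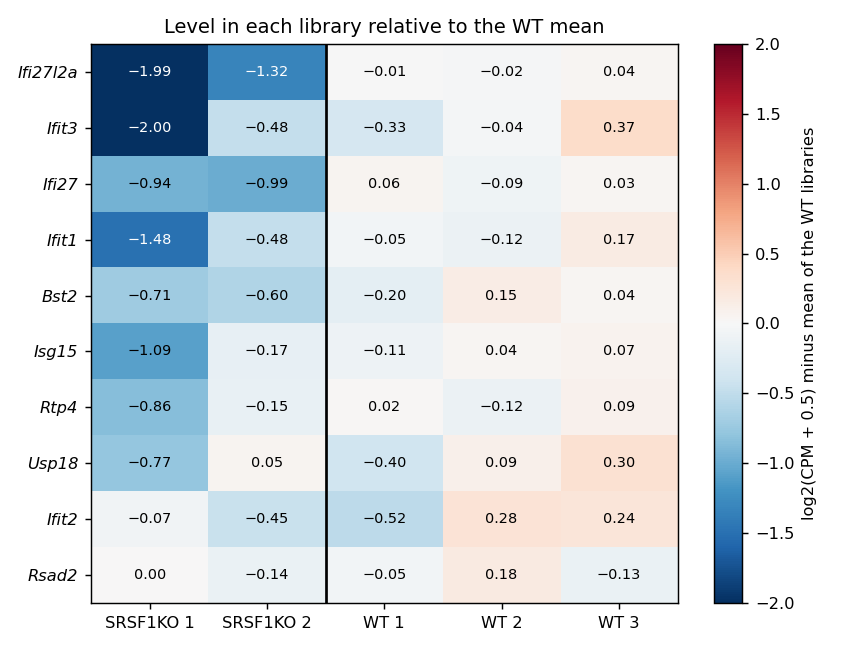
Heat map of log2(CPM + 0.5) minus the mean of the 3 WT libraries, for each gene (rows, ordered by log2 fold change) and library (columns, SRSF1KO left of the black line, WT right). Ifi27l2a, Ifi27 and Bst2 are low in both SRSF1KO columns, whereas Isg15, Rtp4 and Usp18 are low mainly in SRSF1KO replicate 1, at −1.09, −0.86 and −0.77.

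The wider interferon programme, from a list that holds none of the 10 genes, was read next. That list too was chosen with earlier results of these data known, so its shares are descriptions and were not tested as a group. Of 48 other interferon-stimulated genes tested, 34 had a log2 fold change below 0 (50.6% of all genes), and the median was −0.31. None was called with edgeR, while 19 were lower (8.45% of all genes) and 0 higher (5.9%) at an unadjusted p under 0.05. DESeq2 called 13 lower (3.56% of all genes) and limma-voom 2 (0.409%), and neither called any higher (2.31% and 0.133%). For 26 of the 48 both SRSF1KO libraries were below all WT libraries, beside 17.8% of all genes, and for 1 they were above, beside 15.2%. Oas3, a synthetase of the oligoadenylates that activate RNase L, had 27.8 and 40.6 CPM in SRSF1KO, against 75.7, 79.5 and 96.7 CPM in WT (log2 fold change −1.29 ± 0.21, adjusted p = 0.0637). Ifi47, an immunity-related GTPase, had 169.8 and 189.0 CPM in SRSF1KO, against 265.6, 275.3 and 303.2 CPM in WT (log2 fold change −0.65 ± 0.11, adjusted p = 0.0675). The ISRE letters were found in 17 of the 39 other interferon-stimulated genes with a promoter window, or 43.6%.

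**Figure D5:**
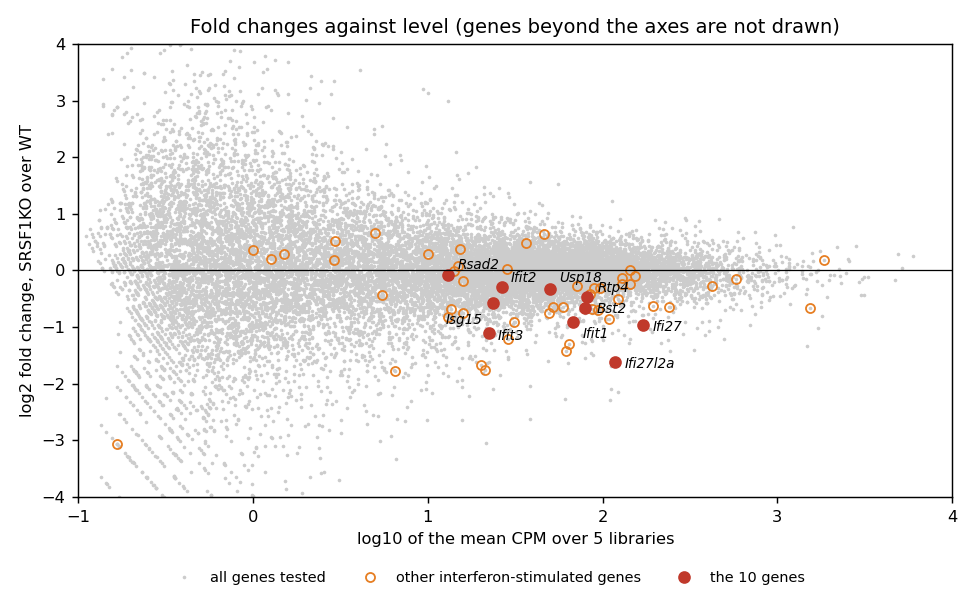
Log2 fold change of SRSF1KO over WT (y axis) against the log10 mean CPM (x axis, not corrected for transcript length) for all genes tested (grey), the other interferon-stimulated genes (open orange circles) and the 10 genes (red, named). All 10 lie below 0, with medians of −0.62 for the 10 genes and −0.31 for the other interferon-stimulated genes.

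Among the upstream components, Irf9, the DNA-binding subunit of ISGF3, had 108.8 and 95.7 CPM in SRSF1KO, against 148.3, 162.0 and 136.5 CPM in WT (log2 fold change −0.54 ± 0.12, adjusted p = 0.127). Both SRSF1KO libraries were below the WT range for Irf9. They were above it for Stat2, which is part of the same complex, and for Ifnar2, a receptor chain, with log2 fold changes of 0.17 ± 0.11 and 0.32 ± 0.17 that did not pass. Jak1 was below the WT range at −0.21 ± 0.083, and Ifnar1 and Tyk2 overlapped it at −0.11 ± 0.16 and −0.36 ± 0.21, none of them past the edgeR threshold. Genes of this paragraph other than Irf9 were chosen after their values were seen.

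Of the 7 other interferon regulatory factors, edgeR and limma-voom called 0 and DESeq2 called 3 lower, beside 3.56% of all genes. At an unadjusted p under 0.05, 3 were lower, beside 8.45%, and the median was −0.11. Irf7, which amplifies the interferon response and is itself interferon-induced, had a log2 fold change of −0.85 ± 0.18 (adjusted p = 0.120). Irf4, a factor induced by T cell receptor signals, had 5.24 and 4.50 CPM in SRSF1KO, against 16.3, 23.1 and 11.7 CPM in WT (log2 fold change −1.80 ± 0.36, adjusted p = 0.11). The 6 negative regulators had a median of −0.0028. EdgeR and limma-voom called 0 of them, DESeq2 called 1 higher, beside 2.31% of all genes, and at an unadjusted p under 0.05 1 was lower, beside 8.45%, and 2 were higher, beside 5.9%. Socs1, which inhibits JAK kinases, had 212.3 and 172.0 CPM in SRSF1KO, against 105.8, 134.6 and 148.0 CPM in WT (log2 fold change 0.57 ± 0.16, adjusted p = 0.194). Ptpn2, a phosphatase that acts on JAK1, had a log2 fold change of 0.38 ± 0.12 (adjusted p = 0.225).

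Transcripts of the interferons themselves were at the limit of detection. The 16 interferon genes together had 30 and 6 raw counts in SRSF1KO, against 28, 29 and 44 in WT, and 8 of the 16, Ifnb1 among them, had 0 counts in every library. A count of 0 allows up to 3 counts, or 0.0779 to 0.0839 CPM per library, and covers counting error only. The 2 that were tested, Ifnab and Ifnk, had at most 28 counts in any library and neither passed with edgeR, DESeq2 or limma-voom, nor at an unadjusted p under 0.05. The largest single value, 28 counts, was that of Ifnk in SRSF1KO replicate 1. Differences in interferon transcripts were not detectable at this depth.

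The genes with the pattern most like the 10 over the 5 libraries were Lgals3bp, Icam1, Plekho1, Uck1 and Spast, by the root mean square difference from the median centred log2 profile of the set, among 9077 genes. That difference was 0.047 for Lgals3bp, 0.049 for Icam1 and Plekho1, 0.065 for Uck1 and 0.067 for Spast, on the log2 scale. Lgals3bp, an interferon-induced secreted glycoprotein that the list of other interferon-stimulated genes holds too, had 118.3 and 174.4 CPM in SRSF1KO, against 196.6, 229.1 and 253.4 CPM in WT. Icam1, an adhesion molecule, had 30.4 and 46.7 CPM in SRSF1KO, against 50.8, 59.2 and 60.7 CPM in WT. Within the set itself, Isg15 and Rtp4 were the closest to the median profile, at 0.12 each, and Ifi27l2a was the farthest, at 0.50. The profile had its lowest value in SRSF1KO replicate 1 (−0.64), with −0.097 in SRSF1KO replicate 2 and 0.15, 0.29 and 0.38 in WT replicates 1, 2 and 3. With 5 libraries these distances are descriptions and were not tested.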

How the data were processed

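RNA-seq of sorted thymocytes from 2 SRSF1KO and 3 WT samples was used. The authors deposited 1 table of counts, whole numbers with no normalisation, for 53715 Ensembl IDs, of which 53620 matched a symbol. The submitters' processing notes name HTSeq 0.6.1, cutadapt 1.17 and the build mm10, among other tools, without roles. No source used here gives the aligner, the annotation release or the strand setting.

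Differential expression was tested with edgeR 4.0.16 in R 4.3.3 (TMM, filterByExpr, robust quasi-likelihood fit with group as the only term, two-sided, Benjamini-Hochberg over all 17351 genes tested, threshold 0.05). Each standard error is the absolute log2 fold change divided by the root of F. Levels are CPM after TMM with mean ± SD, and levels of different genes were not compared because transcript lengths were not used. Named genes were the 10 members and, per pathway list, called members or the 2 with the smallest p. The members and lists were chosen with earlier results of these data known. The scripts were tested on simulated data. Alternatives were DESeq2 1.42.0, limma-voom (limma 3.58.1), other scalings and filters, a replicate block, a sex term, and leaving out each library. Coordinates and promoters are from RefSeq GRCm38.p6 (mm10). Every pair of libraries differed by more than sampling noise. Counts over the whole receptor and ISGF3 list are not reported here.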

Additional observations from a re-analysis of the deposited data

How the results depend on the processing

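The medians of the 10 genes (−0.89 to −0.49) and of the other interferon-stimulated genes (−0.50 to −0.25) stayed negative under all 13 alternatives. The number of the 10 called lower was 1 with DESeq2's size factors, 4 with the DESeq2 test, 0 with the replicate block (5 at an unadjusted p under 0.05), 0 with the sex term (6) and 0 to 2 with 1 library left out, being 0 without any 1 WT library (4 each). The number of other interferon-stimulated genes called lower was 11 without the filter, 9 on genes averaging 5 CPM or more, 13 with DESeq2, 2 with limma-voom and 0 to 6 with 1 library left out. Over all genes, the numbers called lower and higher were 7 and 3 with DESeq2's size factors, 346 and 198 without the filter, 233 and 143 on genes averaging 5 CPM or more, 627 and 407 with DESeq2, 71 and 23 with limma-voom, 0 and 0 with the replicate block (914 and 726 at an unadjusted p under 0.05), and 5 and 0 with the sex term. With 1 library left out they were 0 to 67 and 0 to 21, being 0 without WT replicate 1, 2 or 3. The log2 fold change of Srsf1 missed the threshold with DESeq2's size factors (−1.53), with the replicate block (−1.59) and with any library left out (−1.80 to −1.32). Directions turned for Usp18 without SRSF1KO replicate 1 (0.028, its range being −0.79 to 0.028) and for Rsad2 without WT replicate 2 (0.022) or SRSF1KO replicate 2 (0.015), its range being −0.15 to 0.022. The cause of these changes was not tested. Replicate numbers pair no samples by the labels, and deviations of same-numbered SRSF1KO and WT libraries correlated at −0.046 and −0.013. A lone SRSF1KO library was taken to vary as WT libraries do. The median of all genes moved by 0.018 with DESeq2's size factors and 0.022 with upper quartile scaling.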
